A study of Mus musculus with 10 samples.

Results

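A set of 9 genes of retinoid handling (Rbp7, Stra6, Aldh1a1, Aldh1a2, Aldh1a3, Rdh10, Crabp1, Crabp2 and Dhrs3) was followed in mouse epididymal white adipose tissue, the visceral fat pad attached to the epididymis. A probe set was taken wherever the platform annotation gave 1 symbol only and that symbol was among these 9. This gave 12 probe sets, 3 of them for Aldh1a3 and 2 for Rdh10, out of 45037 probe sets tested, and 9 genes out of 18193. One group of mice ate a high-fat diet with 60% fat, and the other ate normal chow (CRF-1), each for 8 weeks from the age of 8 weeks. All were male C57BL/6J mice, 5 in each group, with 1 array of biotin-labelled RNA from each. The labels name no altered gene, and the tissue was the whole fat pad, with all its cell types together.

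Vitamin A reaches cells as retinol bound to Rbp4 in plasma. Inside the cell retinol is oxidised reversibly to retinaldehyde and then irreversibly to retinoic acid, which activates nuclear receptors that bind DNA. In fat these receptors share partners with the adipogenic receptor Pparg, and retinoids are known to affect fat cell formation and lipid burning. Stra6 is the membrane receptor that takes up retinol from Rbp4. Rbp7 is a cytosolic retinol-binding protein. Rdh10 oxidises retinol to retinaldehyde and Dhrs3 reduces retinaldehyde back to retinol. Aldh1a1, Aldh1a2 and Aldh1a3 are the retinaldehyde dehydrogenases that make retinoic acid, and Crabp1 and Crabp2 bind retinoic acid in the cytosol.

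The promoters of Aldh1a1 and Aldh1a2 are shown because these isoenzymes moved in opposite directions, and that of Rbp7 as another gene that fell. Crabp1, which fell further at a dim level, also had a window that is not shown. Each is the stretch of 250 bases before a start site in RefSeq on GRCm38.p6, written 5′ to 3′ on the strand of the gene. The windows are chr19:20601718-20601967 (plus strand) for Aldh1a1, chr9:71215539-71215788 (plus strand) for Aldh1a2 and chr4:149454969-149455218 (minus strand) for Rbp7. Capitals mark every match, on either strand, to the octamer ATGCAAAT, the CCAAT box, the GC box GGGCGG and a core motif of nuclear receptors in its forms AGGTCA (the commonest), GGGTCA (a variant) and AGTTCA (another variant). The motifs were chosen after the sequences had been read. For Aldh1a1, which has 2 windows, the one with more kinds of match is shown.
Aldh1a1: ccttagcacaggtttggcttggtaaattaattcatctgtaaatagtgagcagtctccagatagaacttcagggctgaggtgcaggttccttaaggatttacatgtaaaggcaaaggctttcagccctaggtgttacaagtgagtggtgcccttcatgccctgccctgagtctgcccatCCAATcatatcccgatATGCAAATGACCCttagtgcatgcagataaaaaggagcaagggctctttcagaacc
Aldh1a2: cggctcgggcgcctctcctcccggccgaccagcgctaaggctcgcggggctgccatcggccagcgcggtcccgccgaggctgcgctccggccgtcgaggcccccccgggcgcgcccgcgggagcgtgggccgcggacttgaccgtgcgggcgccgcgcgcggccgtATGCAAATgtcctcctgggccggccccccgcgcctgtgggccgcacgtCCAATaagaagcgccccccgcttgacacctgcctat
Rbp7: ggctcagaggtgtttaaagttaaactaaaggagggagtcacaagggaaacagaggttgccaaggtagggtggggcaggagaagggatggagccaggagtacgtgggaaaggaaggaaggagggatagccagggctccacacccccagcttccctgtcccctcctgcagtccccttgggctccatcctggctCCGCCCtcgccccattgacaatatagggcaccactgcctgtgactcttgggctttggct
The Aldh1a1 and Aldh1a2 windows shown both held the octamer, which was in 1.601% of 32851 RefSeq promoter windows of this length. Both also held CCAAT, which was in 33.9%. The other Aldh1a1 window held no match to any of the marked motifs. In the Aldh1a1 window shown, the octamer overlapped GGGTCA on the opposite strand by 1 base. The Rbp7 window held 1 GC box, a motif in 32.7% of windows. Of 12 windows of 6 of these genes, none held AGGTCA, which was in 14.0% of all windows, or AGTTCA, which was in 11.8%, and GGGTCA, in 11.7% of all, was in 1. Direct repeats of AGGTCA with 1, 2 or 5 bases between them, the arrangement bound by retinoid receptors, were in none of the 12 windows and in 0.0335%, 0.00913% and 0.00913% of all windows. Aldh1a2 held 40 CpG in these 250 bases, Rbp7 held 3 and Aldh1a1 held 1. These matches describe the letters only.

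Levels are normalized log2 intensities, and every change is high-fat minus chow in log2 units, with limma's standard error (SE) and a p adjusted by Benjamini-Hochberg over all probe sets. Array medians were 17.9 to 27.4 on the deposited scale, and precision depends on having only 5 arrays a diet. Chow arrays 1 and 2 stood apart: they had the lowest means of the adipocyte and endothelial marker lists among all 10 arrays and the highest of the epithelial list. They were not alike in all. The adipocyte mean of chow array 1 (11.23) was close to that of high-fat array 3 (11.24). For the epididymis and testis list, chow array 1 had the lowest mean on chow (6.25) and chow array 2 the highest (11.83). Of 10 epithelial markers all 10 fell on the high-fat diet, with a summed intensity of 491 to 586 on the high-fat diet and 1551 to 18953 on chow. Of 15 epididymis and testis markers 7 fell and none rose (505 to 1481 on the high-fat diet and 5913 to 83340 on chow), and of 10 macrophage markers all 10 rose (29455 to 47167 on the high-fat diet and 2474 to 5377 on chow). Leaving out chow arrays 1 and 2 did not remove these differences: 12 of the 15 epididymis and testis markers and all 10 epithelial markers then fell. None of the 8 adipocyte markers passed in either direction over all 10 arrays (36217 to 44239 on the high-fat diet and 19956 to 49364 on chow). With chow arrays 1 and 2 left out, 2 of the 8 fell, Pparg by 0.96 and Pnpla2 by 0.67 (limma adjusted p = 0.00146 and 0.00303). Adipoq and Fabp4 were bright on every array, so each held fat. The epididymis and testis sum was 83340 on chow array 2 and 42674 on chow array 3, above the adipocyte sums of 19956 and 39968. On the other chow arrays the adipocyte sum was the larger. For the actin control, signal at the 5′ end over that at the 3′ end was 0.557 to 0.643 on the high-fat diet and 0.272 to 0.456 on chow. For the Gapdh control it was 1.02 to 1.08 on the high-fat diet and 0.563 to 0.900 on chow. The diets did not overlap in either ratio. No marker of these lists lay at the floor on all arrays. The part of these differences in the results below was not tested except where a value is given.

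The retinoid genes did not move one way. Of the 12 probe sets, 3 rose (Dhrs3, Aldh1a3 and Aldh1a2), 3 fell (Crabp1, Aldh1a1 and Rbp7) and 6 did not pass an adjusted p of 0.05. Among all probe sets tested 17.9% passed, 9.89% higher and 8.00% lower. Counting the brightest probe set of each gene, 6 of the 9 genes passed, where 23.9% of all genes did (36.7% without chow arrays 1 and 2). The median change was -0.070 over the 12 probe sets and 0.013 over all probe sets. In 2 of the 12, those of Aldh1a1 and Dhrs3, the groups did not overlap, as was so for 16.7% of all probe sets. Without chow arrays 1 and 2, 2 rose and 3 fell, where 14.3% and 14.0% of all probe sets did (28.3% in either direction). Each of these was the brightest of its gene, and 36.7% of all genes passed without those arrays. On the log2(value + 16) scale 3 rose and 3 fell, where 10.2% and 7.50% of all probe sets did. Leaving out any 1 array left 1 to 4 rises and 1 to 3 falls, so several of these calls lie close to the threshold. The chow arrays had the larger SD in 8 of the 12 probe sets.

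**Figure D1:**
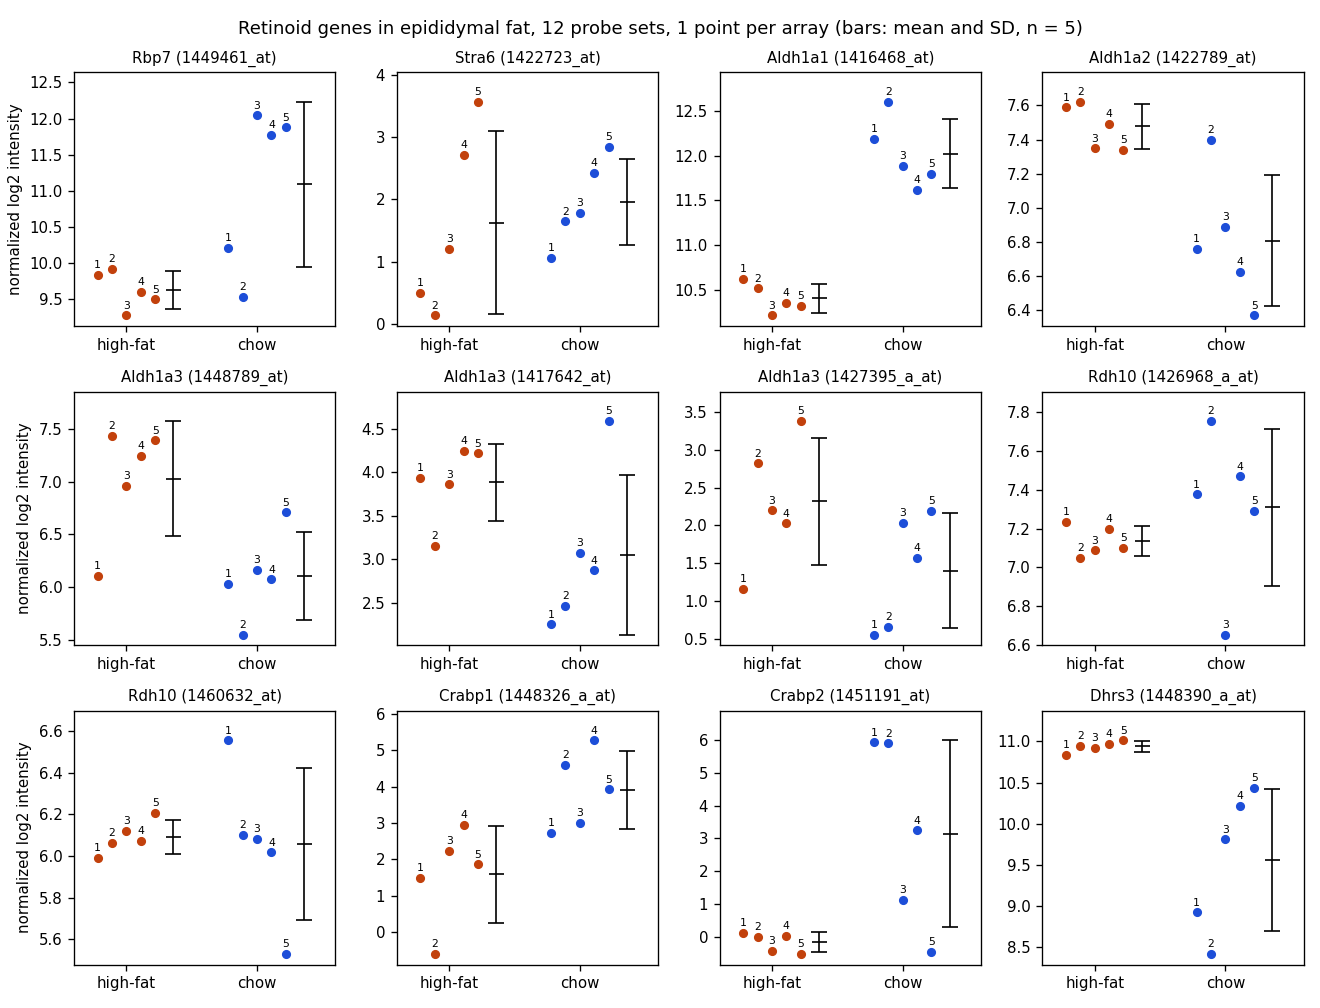
Normalized log2 intensity (vertical axis) of the 12 probe sets of the 9 retinoid genes on each array, high-fat on the left and chow on the right, with array numbers at the points and the mean and SD (n = 5) beside them. Aldh1a1 lies between 10.21 and 10.62 on the high-fat diet and between 11.62 and 12.60 on chow, and Dhrs3 between 10.84 and 11.01 on the high-fat diet and between 8.42 and 10.44 on chow; the other panels overlap.

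Among genes of retinol uptake and binding, Rbp7 fell and Stra6 did not pass. Rbp7 is known in mice as a gene of capillary endothelium and fat. Its level on high-fat arrays 1 to 5 was 9.84, 9.92, 9.27, 9.60 and 9.50, and on chow arrays 1 to 5 it was 10.21, 9.53, 12.05, 11.78 and 11.88. Chow arrays 3 to 5 lay far above every high-fat array, chow array 1 lay just above them and chow array 2 lay among them. The mean was 9.63 ± 0.26 on the high-fat diet and 11.09 ± 1.14 on chow (SD, n = 5 each), a fall of 2.76-fold (log2 change -1.46, SE 0.45, limma adjusted p = 0.0428). This call did not hold in the deposited values without normalization (-1.15, limma adjusted p = 0.0983) or on leaving out any 1 of 8 arrays, all but chow arrays 1 and 2, and the adjusted p ran from 3.89e-06 to 0.127 over the alternatives. With chow arrays 1 and 2 left out, Rbp7 fell by 2.28 (SE 0.14, limma adjusted p = 3.89e-06). In whole tissue, fewer cells of a type and less RNA per cell cannot be told apart.

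The endothelial markers moved with Rbp7 within each diet group. None of 10 endothelial markers passed over all 10 arrays, but without chow arrays 1 and 2, 9 of the 10 fell, among them Kdr by 1.76 and Pecam1 by 1.20 (limma adjusted p = 0.000271 and 0.00451). Over all arrays their mean level was 8.22 to 8.80 on the high-fat diet (summed intensity 4447 to 6246) and 7.05 to 9.69 on chow (1669 to 9408). The difference of Rbp7 from that mean within an array was therefore compared, a comparison chosen after the data were seen, as 1 of 6 of its kind. It was 1.08, 1.12, 0.95, 1.09 and 1.28 on high-fat arrays 1 to 5, and 2.38, 2.48, 2.35, 2.40 and 2.45 on chow arrays 1 to 5. Chow arrays 1 and 2 thus stood with the other chow arrays on this measure, and the groups were far apart. The mean was 1.10 ± 0.12 on the high-fat diet and 2.41 ± 0.051 on chow (SD, n = 5 each), lower by 1.31 on the high-fat diet (2-sided exact permutation p = 0.00794, the smallest this design allows, and 0.0119 adjusted over the 6). Over the alternatives the difference ran from -1.36 to -1.25. The size of the gap between different probe sets has no meaning of its own. Its change shows that Rbp7 and the endothelial list changed unequally.

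**Figure D2:**
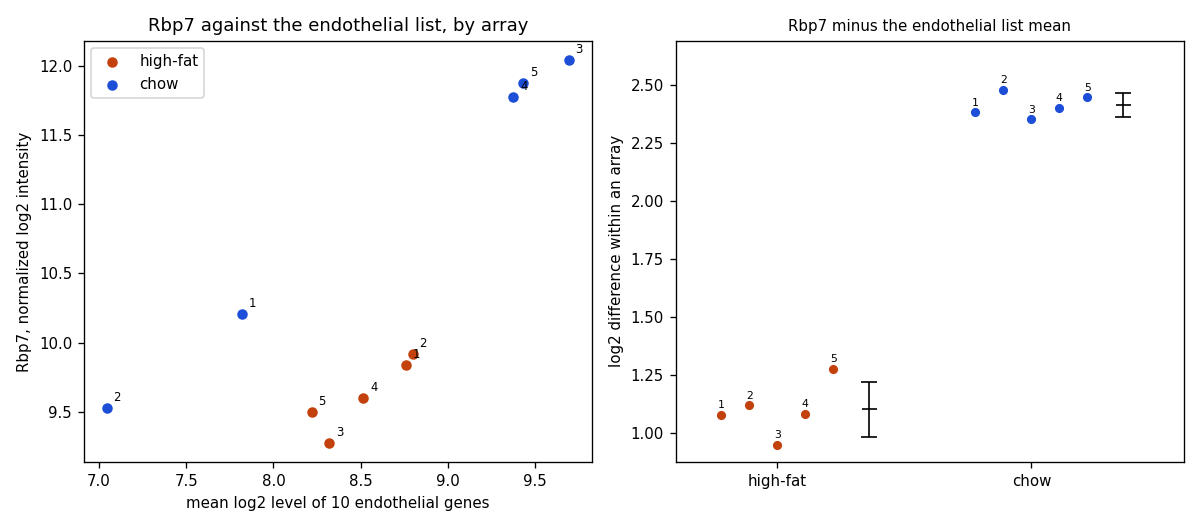
Left, Rbp7 level (vertical axis, normalized log2 intensity) against the mean log2 level of 10 endothelial genes (horizontal axis), 1 numbered point per array. Right, the within-array log2 difference, Rbp7 minus that mean, high-fat before chow, with mean and SD (n = 5); high-fat arrays lie between 0.95 and 1.28 and chow arrays between 2.35 and 2.48.

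The genes closest to Rbp7 in pattern were Podxl, C730049O14Rik and Als2cl. Likeness was the root mean square difference of log2 levels over the 10 arrays, each gene centred on its own mean, and it was 0.14, 0.14 and 0.21 for these genes. Podxl, a sialomucin of the cell surface, changed by -1.45 and did not pass (limma adjusted p = 0.0654), with 7.66 on the high-fat diet and 9.11 on chow.

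Stra6 was close to the lowest values of the table. Its deposited intensities were 1.31, 1.02, 2.43, 5.27 and 11.9 on high-fat arrays 1 to 5 and 2.34, 3.67, 3.69, 6.40 and 6.90 on chow arrays 1 to 5. The groups overlapped throughout, and the change was -0.33 (SE 0.69, limma adjusted p = 0.796). On the log2(value + 16) scale it was 0.0071. A Stra6 change was not detectable at this signal.

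Of the enzymes that pass retinol and retinaldehyde back and forth, Dhrs3 rose and Rdh10 did not pass, and the difference between them was not tested. Dhrs3 was 10.84, 10.94, 10.93, 10.97 and 11.01 on high-fat arrays 1 to 5, and 8.92, 8.42, 9.81, 10.21 and 10.44 on chow arrays 1 to 5. The high-fat arrays were nearly equal and all lay above all chow arrays, whose lowest values were those of arrays 1 and 2. The mean was 10.94 ± 0.065 on the high-fat diet and 9.56 ± 0.86 on chow (SD, n = 5 each), a rise of 2.60-fold (log2 change 1.38, SE 0.33, limma adjusted p = 0.0148). Leaving out chow arrays 1 and 2 gave a rise of 0.79 (SE 0.13, limma adjusted p = 0.00104).

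Adipocyte markers were also lowest in chow arrays 1 and 2, with a mean of 8 genes of 11.24 to 11.79 on the high-fat diet and 10.01 to 11.99 on chow. Set against that mean within each array, Dhrs3 was higher by 1.24 on the high-fat diet, with -0.95 to -0.23 on the high-fat diet and -2.31 to -1.55 on chow (2-sided exact permutation p = 0.00794; 0.0119 adjusted over the 6 such comparisons). The alternatives gave 1.12 to 1.36. Dhrs3 was not set against the stromal progenitor list, of whose 8 markers 3 rose and none fell. The mean of that list was 8.61 to 9.63 on the high-fat diet and 8.13 to 8.97 on chow. It ordered the chow arrays as Dhrs3 did, but not the high-fat arrays. The part of stromal cells in the Dhrs3 rise was not tested. The closest genes in pattern over the 10 arrays were Ppic, Plod1 and Tram2, at a root mean square difference of 0.10, 0.11 and 0.13. Plod1, a lysyl hydroxylase of collagen, rose by 1.30 (limma adjusted p = 0.0390), with 8.88 on the high-fat diet and 7.58 on chow.

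Rdh10 was measured by a pair of probe sets that gave the same picture. The brighter was 7.23, 7.05, 7.09, 7.20 and 7.10 on high-fat arrays 1 to 5 and 7.38, 7.75, 6.65, 7.47 and 7.29 on chow arrays 1 to 5. The high-fat values lay within the chow range, and the change was -0.17 (SE 0.18, limma adjusted p = 0.574). The dimmer changed by 0.034 (SE 0.19, limma adjusted p = 0.928). The direction of the brighter one turned to 0.021 for the values as deposited and to 0.16 with median centring of the arrays.

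The retinaldehyde dehydrogenases split, with Aldh1a1 lower and Aldh1a2 and Aldh1a3 higher on the high-fat diet. Aldh1a1 is the isoenzyme known as abundant in mouse visceral fat. Its level was 10.62, 10.51, 10.21, 10.36 and 10.32 on high-fat arrays 1 to 5, and 12.19, 12.60, 11.89, 11.62 and 11.80 on chow arrays 1 to 5. Every high-fat array lay below every chow array by a wide margin. The mean was 10.40 ± 0.16 on the high-fat diet and 12.02 ± 0.39 on chow (SD, n = 5 each), a fall of 3.06-fold (log2 change -1.61, SE 0.18, limma adjusted p = 0.000124). On the remaining 8 arrays without chow arrays 1 and 2 the fall was 1.36 (SE 0.11, limma adjusted p = 1.65e-05), and the call held under all 21 alternatives, with an adjusted p of at most 0.00163.

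Epithelial markers fell in the same direction as Aldh1a1. Their mean was 4.52 to 5.02 on the high-fat diet and 6.99 to 10.37 on chow. Set against it within each array, Aldh1a1 was higher by 2.34 on the high-fat diet, so gene and list fell unequally (2-sided exact permutation p = 0.00794; 0.0119 adjusted over the 6). On chow arrays 1 to 5 the epithelial mean was 10.18, 10.37, 8.45, 7.67 and 6.99, and Aldh1a1 was highest on arrays 2, 1 and 3, in the order of that mean, with array 5 above array 4. The part of epithelium in the Aldh1a1 fall was not tested. Set against the adipocyte mean within each array, Aldh1a1 was lower by 1.75 on the high-fat diet (2-sided exact permutation p = 0.00794; 0.0119 adjusted over the 6), with -1.35 to -0.92 on the high-fat diet and -0.33 to 2.59 on chow. That difference was -0.99 without chow arrays 1 and 2. Dancr, Rogdi and Plcd3 were closest to Aldh1a1 in pattern, at a root mean square difference of 0.12, 0.17 and 0.19.

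Aldh1a7, a close copy of Aldh1a1 in rodents that is not counted here as a retinoid gene, did not follow it. Its probe set was 11.98, 12.23, 11.83, 12.19 and 11.87 on high-fat arrays 1 to 5, and 9.85, 12.19, 10.92, 11.28 and 11.14 on chow arrays 1 to 5. All chow arrays but array 2 lay below the high-fat arrays. The change was 0.95 (SE 0.33, limma adjusted p = 0.0737), and without chow arrays 1 and 2 it was 0.91 (SE 0.13, limma adjusted p = 0.000407). Whether the probes of either gene bind transcripts of the other was not tested.

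Aldh1a2 is known as a gene of mesothelium and of some macrophages and dendritic cells. It was 7.59, 7.62, 7.35, 7.49 and 7.34 on high-fat arrays 1 to 5, and 6.76, 7.40, 6.89, 6.62 and 6.37 on chow arrays 1 to 5. Chow array 2 reached the high-fat range and the other chow arrays lay below it. The mean was 7.48 ± 0.13 on the high-fat diet and 6.81 ± 0.38 on chow (SD, n = 5 each), a rise of 1.59-fold (log2 change 0.67, SE 0.18, limma adjusted p = 0.0246). The rise was 0.85 without chow arrays 1 and 2 (limma adjusted p = 0.000907). The call was lost on leaving out chow array 4 or high-fat array 1, 2 or 4, with changes of 0.62 to 0.67 (limma adjusted p = 0.0541 to 0.0637).

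Of 10 mesothelial markers 2 fell, Upk1b and Krt19, and none rose on the high-fat diet. Krt19, which changed by -3.53, is also in the epithelial list, all of whose markers fell. With Krt19 included, the mesothelial mean was 4.73 to 6.89 on the high-fat diet (summed intensity 467 to 1810) and 6.03 to 7.89 on chow (993 to 5940). Set against it, Aldh1a2 was higher by 1.74 on the high-fat diet, with overlap of the groups (2-sided exact permutation p = 0.0159; 0.0190 adjusted over the 6). The macrophage mean was 10.68 to 11.34 on the high-fat diet and 7.36 to 8.30 on chow, so both it and Aldh1a2 were higher on the high-fat diet. Within each diet the order differed. Chow array 5 had the highest macrophage mean on chow and the lowest Aldh1a2, and high-fat array 5 had the highest macrophage mean and the lowest Aldh1a2 on the high-fat diet. The part of macrophages in the Aldh1a2 rise was not tested. Gorasp2, Gcsh and Pea15a were closest to Aldh1a2 in pattern, at a root mean square difference of 0.12, 0.14 and 0.14.

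Aldh1a3 had 3 probe sets, all higher on average on the high-fat diet, of which the brightest passed. It was 6.11, 7.43, 6.96, 7.25 and 7.39 on high-fat arrays 1 to 5, and 6.03, 5.55, 6.16, 6.07 and 6.71 on chow arrays 1 to 5. High-fat array 1 lay among the chow arrays and the other high-fat arrays lay above all of them. The mean was 7.03 ± 0.55 on the high-fat diet and 6.10 ± 0.41 on chow (SD, n = 5 each), a rise of 1.90-fold (log2 change 0.92, SE 0.28, limma adjusted p = 0.0409). It differed by 0.71 and did not pass without chow arrays 1 and 2 (limma adjusted p = 0.0967). Leaving out single arrays lost the call in 8 of 10 cases, all but high-fat array 1 and chow array 5, with changes of 0.78 to 0.94 and an adjusted p of up to 0.102. The dim probe sets differed by 0.83 and 0.91 (limma adjusted p = 0.258 and 0.287). Isl2, Eif5a2 and Timp2 were closest to Aldh1a3 in pattern, at a root mean square difference of 0.24, 0.26 and 0.27. Set against the adipocyte mean, Aldh1a3 differed by 0.78 (2-sided exact permutation p = 0.0952, also after adjustment over the 6).

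**Figure D3:**
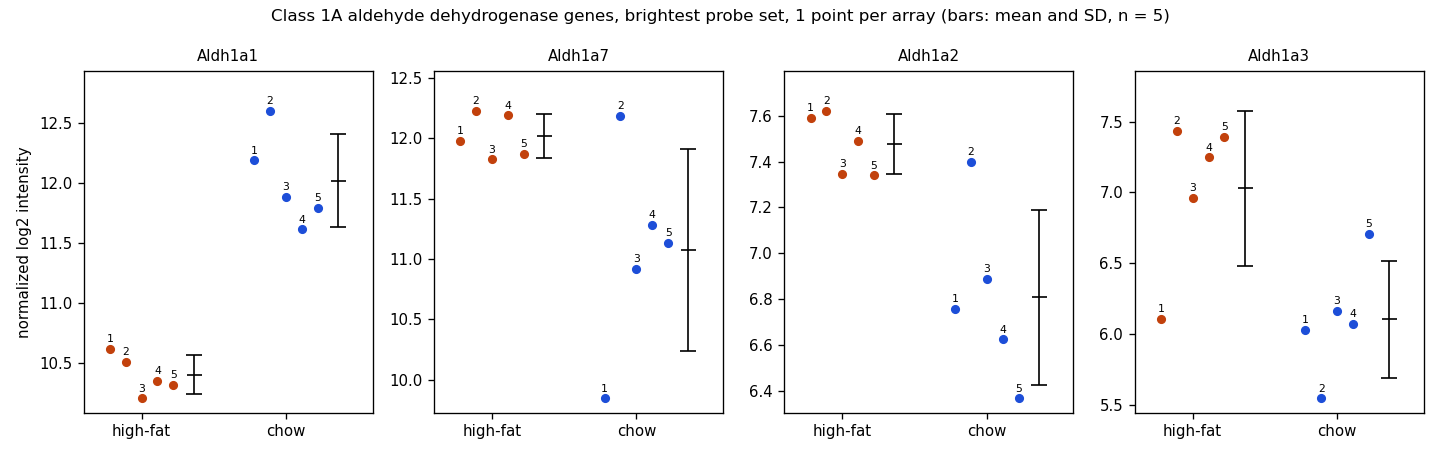
Normalized log2 intensity (vertical axis) of the brightest probe set of Aldh1a1, its close copy Aldh1a7, Aldh1a2 and Aldh1a3 on each array, high-fat on the left and chow on the right, with mean and SD (n = 5). Aldh1a1 averages 10.40 on the high-fat diet and 12.02 on chow, and the other 3 genes have the higher mean on the high-fat diet, 12.02, 7.48 and 7.03 against 11.07, 6.81 and 6.10 on chow.

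Both cellular retinoic acid-binding proteins had their higher levels on chow and were dim. Crabp1 had deposited intensities of 2.55, 0.540, 4.98, 6.23 and 3.69 on high-fat arrays 1 to 5, and 6.85, 25.8, 8.49, 47.0 and 14.1 on chow arrays 1 to 5. Chow arrays 2 and 4 were highest, and the groups overlapped by 1 pair of arrays after normalization. The change was -2.32 (SE 0.71, limma adjusted p = 0.0430), and -0.73 on the log2(value + 16) scale (limma adjusted p = 0.0470). The call was lost on leaving out any 1 of 8 arrays (limma adjusted p = 0.0514 to 0.0960), and passed without high-fat array 4 or chow array 1.

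Crabp2, which carries retinoic acid to its nuclear receptor, was seen on some chow arrays only. Its deposited intensities were 1.03, 0.940, 0.795, 0.865 and 0.721 on high-fat arrays 1 to 5, near the floor of 0.658, and 59.5, 60.5, 2.30, 11.1 and 0.714 on chow arrays 1 to 5. Chow arrays 1 and 2, which had the highest epithelial means (10.18 and 10.37), held most of the signal, and chow array 5, with the lowest on chow (6.99), was at the high-fat level. The change was -3.30 (SE 1.12, limma adjusted p = 0.0645) and -1.46 without chow arrays 1 and 2 (limma adjusted p = 0.191), but it passed without chow array 5 (-4.20, limma adjusted p = 0.0105). The part of epithelium in the Crabp2 signal was not tested. The gene closest to Crabp2 in pattern, Folr1, the folate receptor of epithelia, was at a root mean square difference of 0.87, and it fell by 2.89 (limma adjusted p = 0.0245), with 3.90 on the high-fat diet and 6.80 on chow.

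**Figure D4:**
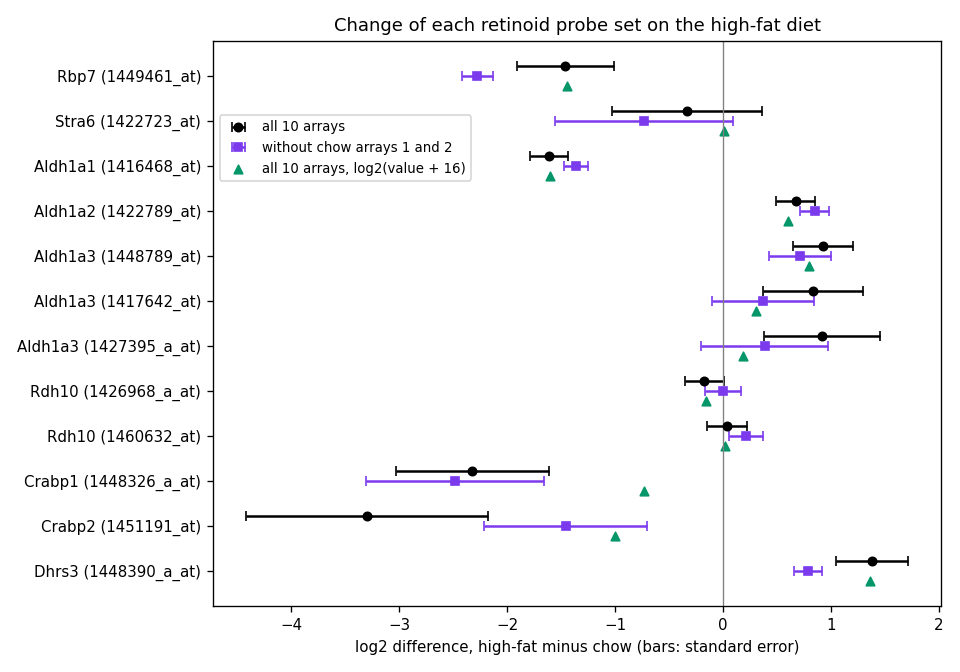
Log2 difference, high-fat minus chow (horizontal axis), of each of the 12 probe sets with its SE, over all 10 arrays and without chow arrays 1 and 2, and as a point without SE on the log2(value + 16) scale. Rbp7 is at -1.46 over all arrays and -2.28 without chow arrays 1 and 2, Dhrs3 at 1.38 and 0.79, Crabp2 at -3.30 and -1.46, and Aldh1a1 at -1.61 and -1.36.

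Of 48 other genes of the retinoid pathway, 44 were named on the array, and more fell than rose: 9 fell, 3 rose and 32 did not pass. Among all genes 11.9% fell and 12.1% rose. The median change was -0.069 over the 44 and -0.037 over all genes. Setting chow arrays 1 and 2 aside, 12 fell and 3 rose, where 18.9% and 17.8% of all genes did. Median centring of the arrays gave 5 falls and 5 rises, and in the deposited values without normalization 4 fell and 4 rose, so that falls did not outnumber rises in either.

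The genes that rose were Fabp5, Dhrs7 and Rdh14. Fabp5, a fatty acid-binding protein that can also carry retinoic acid and is expressed in macrophages, was 13.04 to 13.24 on high-fat arrays and 10.34 to 12.60 on chow arrays, with no overlap (log2 change 1.37, SE 0.38, limma adjusted p = 0.0290). Without chow arrays 1 and 2 the rise was 0.69 (limma adjusted p = 0.000824). Dhrs7, a short-chain dehydrogenase, rose by 0.85 (SE 0.18) and Rdh14, a retinol dehydrogenase, by 0.57 (SE 0.11; limma adjusted p = 0.00646 and 0.00540). The other probe sets of Rdh14 differed by -0.32 and -0.062 and those of Dhrs7 by 1.06 and 0.48, and none of these passed. The Fabp5 call was lost on leaving out chow array 1 or any 1 high-fat array (limma adjusted p = 0.0579 to 0.0655).

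Among the genes that fell, several act in retinol transport, storage and breakdown. Ttr, transthyretin, which carries Rbp4 in plasma, was 6.99 to 10.73 on high-fat arrays and 9.25 to 13.05 on chow arrays (log2 change -3.01, SE 0.89, limma adjusted p = 0.0367). It was -4.38 without chow arrays 1 and 2 (limma adjusted p = 0.000663), and its other 3 probe sets differed by -2.41, -2.99 and -2.95. Cyp26b1, which degrades retinoic acid, was 2.60 to 5.25 on high-fat arrays and 5.13 to 6.12 on chow arrays (log2 change -1.97, SE 0.47, limma adjusted p = 0.0139). Aldh8a1, an aldehyde dehydrogenase, fell by 2.24 (SE 0.55, limma adjusted p = 0.0164), and its other probe set differed by -1.72 and did not pass. The Ttr call was lost on leaving out any 1 array other than high-fat array 5 and chow arrays 1 and 2 (limma adjusted p = 0.0731 to 0.0929).

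Rdh9, a retinol dehydrogenase with close copies in the mouse genome, fell by 2.33 (SE 0.46, limma adjusted p = 0.00510), by a probe set of the kind that can match several transcripts. Lrat, which stores retinol as ester, fell by 2.31 (SE 0.62, limma adjusted p = 0.0244) at very low levels, with -0.60 to 1.98 on high-fat arrays and 1.94 to 4.73 on chow arrays. The other Lrat probe set differed by 0.64, and the call was lost on the log2(value + 16) scale (-0.53, limma adjusted p = 0.0593). Ces1d, a carboxylesterase of fat that splits lipid esters, fell by 1.21 (SE 0.35, limma adjusted p = 0.0358), with 11.07 on the high-fat diet and 12.28 on chow. The other 3 genes that fell were Cyp1b1 (-1.01), Rxrb (-0.62) and Adh5 (-0.57), named after their values were seen. Adh5 differed by -0.067 with median centring, and its other probe set by 1.68 (limma adjusted p = 0.0950). Single arrays also decided calls here: that of Ces1d was lost without any 1 array but chow array 2, that of Rxrb without any but high-fat array 4 and chow array 2, that of Lrat without high-fat array 1, 4 or 5 or chow array 3, and that of Cyp1b1 without high-fat array 2.

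**Figure D5:**
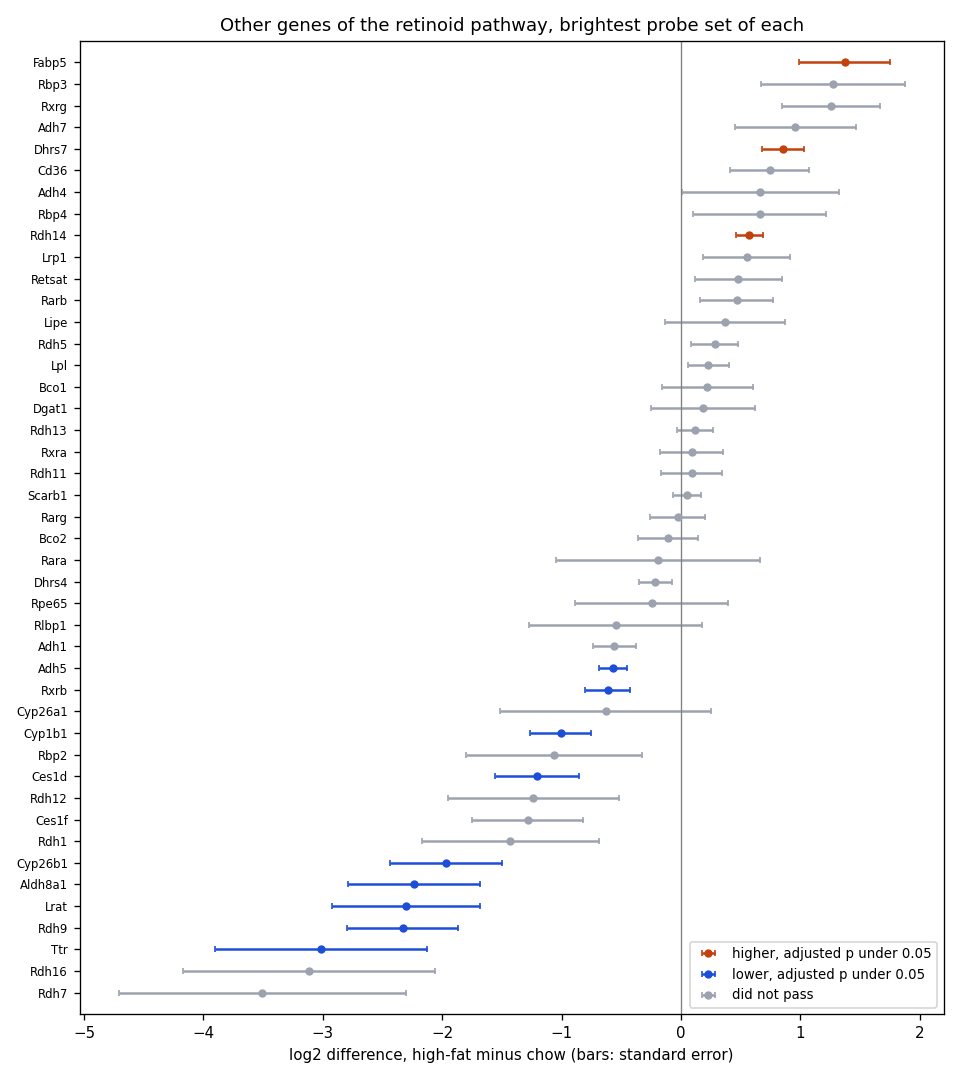
Log2 difference, high-fat minus chow, with its SE (horizontal axis) for the brightest probe set of each of 44 other genes of the retinoid pathway, ordered by size and coloured by the limma call. Fabp5 stands at 1.37 at the top and Ttr at -3.01 is the lowest that passed.

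Of the nuclear receptors of the pathway only Rxrb passed, as given above. Rarg differed by -0.029 (SE 0.23), Rara by -0.20 (SE 0.85), Rarb by 0.47 (SE 0.30) and Rxra by 0.089 (SE 0.26), none of which passed. Rxrg, a partner receptor, differed by 1.26 (SE 0.41, limma adjusted p = 0.0549). Rara was dim, which is seen in its large SE.

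Among 18 named genes of 21 listed as retinoic acid targets, 7 fell and 1 rose, and the median change was -0.95, against -0.037 over all genes, of which 11.9% fell and 12.1% rose. Rarb, Cyp26a1, Cyp26b1 and Lrat are counted in both lists, and of these Cyp26b1 and Lrat fell. These counts use the brightest probe set of a gene, which for Tgm2, a transglutaminase, differed by 0.35 and did not pass (limma adjusted p = 0.135). All 6 Tgm2 probe sets were higher on average on the high-fat diet, and 2 of the dimmer ones rose, by 0.80 and 1.25 (limma adjusted p = 0.00656 and 0.000512). A dimmer probe set of Nrip1, a corepressor, fell by 1.17 (limma adjusted p = 0.0439), and its brightest did not pass; both genes were picked out after their values were seen. Foxa1, an epithelial transcription factor, fell by 4.03 (SE 0.70, limma adjusted p = 0.00236), with 0.72 ± 0.97 on the high-fat diet and 4.75 ± 1.37 on chow (SD, n = 5 each), and by 1.37 on the log2(value + 16) scale. Rarres1 fell by 1.69 (SE 0.52, limma adjusted p = 0.0418). The homeobox genes Meis1 and Hoxa5 fell by 1.48 and 1.05 (limma adjusted p = 0.0103 and 0.0197). The other probe sets of Meis1 differed by -0.74 and -0.83 and that of Hoxa5 by -0.96, and none of these passed. Tshz1, named after its value was seen, fell by 0.78. Rarres2, the chemerin gene, rose by 1.23 (SE 0.39, limma adjusted p = 0.0467), with no overlap of the groups; of its other probe sets 1 also rose and 1 differed by -0.46 and did not pass. Smooth muscle and epithelial markers fell with these genes: 7 of 8 smooth muscle markers fell, with a summed intensity of 3519 to 4979 on the high-fat diet and 7349 to 42361 on chow. The call of Rarres1 was lost without any 1 array but chow array 1, that of Rarres2 without any but chow arrays 2, 4 and 5, and that of Hoxa5 without high-fat array 3 or chow array 3. The part of those tissues in the falls of the target genes was not tested. Without chow arrays 1 and 2, 8 of the 18 fell and 1 rose.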

How the data were processed

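RNA of epididymal fat from 10 mice was measured on Affymetrix mouse arrays. The authors deposited 1 linear intensity per probe set and array, per the labels' protocols from biotin-labelled RNA; how probes were summarised and scaled is not stated in the labels. Of 45101 probe sets, 64 controls were left out of the tests, and 34958 had exactly 1 symbol in the platform annotation. Values below the 5th percentile (0.658) were set to it, and the data were log2 transformed and quantile normalized, since array medians differed by 0.613 against a limit of 0.5. Probe sets were tested in 1 fit with limma 3.58.1 in R 4.3.3 (eBayes with a trend, Benjamini-Hochberg, threshold 0.05); the procedure was tested on simulated data. Lists use the probe set of a gene with the highest mean. No set test was run. Groups and numbers come from the titles. Same-numbered arrays did not deviate together (correlations -0.012 to 0.011), so numbers were not taken as pairs. All 9 genes are named, with up to 6 rises and 6 falls of each pathway list and the genes nearest in pattern with a mean above the median of all probe sets. The members, lists, tests and alternatives were chosen with earlier results of these data known. Scan dates were not used here.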

Additional observations from a re-analysis of the deposited data

How the results depend on the processing

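By the brightest probe set of each, Aldh1a1, Dhrs3, Cyp26b1, Rdh9, Rdh14, Dhrs7, Aldh8a1, Foxa1 and Meis1 kept their direction and call under every alternative run. The other calls were each lost under at least 1. Of the 12 probe sets, 1 rose and 1 fell without a variance trend, and 1 fell with the replicate number as a block, where no pairing was found; leaving out single arrays gave 1 to 4 rises and 1 to 3 falls. Among pathway genes 4 fell and 4 rose for the values as deposited, 5 fell and 5 rose with median centring, and 5 to 12 fell on leaving out single arrays. Among target genes the count of rises was 2 for deposited, median-centred and log2(value + 16) values, 0 with a floor at the 10th percentile, without a trend and with the replicate block, and 0 to 2 on leaving out single arrays, which gave 4 to 8 falls. Median centring moved the median change of all probe sets to 0.18; of all calls 55.3% were higher in the report's setting, 66.3% as deposited and 76.3% centred. Directions reversed only for changes that did not pass: Stra6 (0.0071 on log2(value + 16); -0.82 to 0.041 on leaving out single arrays), Rdh10 (0.021 as deposited, 0.16 centred) and its dimmer probe set (-0.098 to 0.16). The causes were not tested. Stra6, Crabp1, Crabp2, Lrat, Foxa1 and Rdh9 were dim, which limits their fold changes. Rdh9 changed by -2.33 in the report's setting and by -1.28 on the log2(value + 16) scale. Aldh8a1 and Cyp26b1 also had smaller changes on that scale, -1.40 and -1.15.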

Other observations

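Ttr, Aldh8a1, Rdh7 and Rdh16 shared a pattern, noticed after the values were seen: each was higher on chow arrays 3 to 5 than on chow arrays 1 and 2 and on every high-fat array. The pattern was not particular to them. Rbp7 showed it too, as did Ces1d, Ces1f, Cyp26b1, Pck1 and Hoxa5 of the pathway and target lists. Rdh7, a retinol dehydrogenase, was 3.91, 0.75, 4.21, 3.67 and 6.25 on high-fat arrays 1 to 5, and 4.08, 5.13, 9.13, 9.63 and 8.36 on chow arrays 1 to 5. It changed by -3.51 (limma adjusted p = 0.0666), and by -5.28 without chow arrays 1 and 2 (limma adjusted p = 0.00178). Rdh16, of the same enzyme family, was dim and changed by -3.12 (limma adjusted p = 0.0631), and by -4.40 without those arrays (limma adjusted p = 0.00322). Close copies of these dehydrogenases could share probes, which was not tested. Rbp4, the plasma retinol carrier that fat secretes, differed by 0.66 (SE 0.56, limma adjusted p = 0.473), with 11.38 to 11.90 on the high-fat diet and 8.88 to 12.31 on chow. Its lowest values were those of chow arrays 1 and 2, and without them it differed by -0.32 (limma adjusted p = 0.206).

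Of 24 sets of 5 arrays, a probe set in a diet group, none held an array beyond the 95% critical value of Dixon's test for 5 values (0.71). That test looks for a single deviant array, and a pair deviating to the same side can hide each other. It therefore cannot decide whether chow arrays 1 and 2 stood apart.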
